A study of Rattus norvegicus with 20 samples.

Results

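The 7 genes were Pik3ap1 (ENSRNOG00000013309), Ube2v2 (ENSRNOG00000001829), Sfrp1 (ENSRNOG00000017783), Scg3 (ENSRNOG00000010784), Strip2 (ENSRNOG00000057729), Pon1 (ENSRNOG00000008902) and Plekhd1 (ENSRNOG00000038297). They were selected on their RNA level in the choroid plexus, of 32883 genes listed in each library. Each was picked as 1 of the genes most clearly lowered in testosterone-treated obese rats relative to injected lean rats. That contrast therefore describes how the genes were picked, and only the untreated rats, which the choice did not use, were tested. RNA was sequenced from choroid plexus of the lateral ventricles and of the fourth ventricle of 20 female Zucker rats aged 16 weeks. The 4 groups were untreated lean rats (+/fa, n = 6), untreated obese rats (fa/fa, n = 6), lean control rats injected with the sesame oil vehicle (+/fa, n = 4) and obese + TT rats (fa/fa, n = 4). The obese + TT rats received 1 mg testosterone propionate in sesame oil subcutaneously 2 times a week for 4 weeks before the experiment. No vehicle-injected obese group and no testosterone-injected lean group were among the samples, so obesity and testosterone cannot be told apart in the injected rats.

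Obesity of the fa/fa Zucker rat comes from a defect of the leptin receptor, carried in 1 copy by the lean +/fa rats. The choroid plexus is a folded epithelium around a core of vessels and stroma, and it secretes most of the cerebrospinal fluid. The 7 genes belong to separate systems. Pik3ap1, also known as BCAP, is a cytoplasmic adaptor that links receptors of immune cells to phosphoinositide 3-kinase. Ube2v2, also known as MMS2, has no catalytic activity of its own and pairs with Ube2n to build lysine 63-linked ubiquitin chains. Sfrp1 is a secreted protein that binds Wnt ligands and restrains their signal, and Scg3 is a granin that helps to sort cargo into secretory granules. Strip2 is a subunit of the STRIPAK complexes, which join protein phosphatase 2A to kinases. Pon1 is a lactonase and esterase carried in blood on high density lipoprotein, and Plekhd1 is named for its pleckstrin homology and coiled-coil domains.

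Levels are given in TPM, a scale of transcript abundance that corrects for transcript length and makes each library sum to the same total, so a level is a share of the library. The reads behind each value are not known. A library held 14968 to 16860 genes above 0. The tissue label was checked on 11 choroid plexus epithelial markers, all above 0 in every library, which summed to 271338 to 401332 TPM, nearly all of it transthyretin. The other 10 summed to 7843 to 9671 TPM in untreated and 12135 to 13831 TPM in injected rats, and the lowest single value was Otx2 at 7.85 TPM in an untreated obese rat. Transthyretin (Ttr) alone took 31.2 to 39.3% of the TPM in untreated rats and 25.8 to 30.5% in injected rats. The cohorts also differed in markers of other cells. The summed level of 4 of 7 stromal fibroblast markers was 134 to 186 TPM in untreated and 53.9 to 93.0 TPM in injected rats, but Pdgfra, 1 of the 4, went the other way, from 21.3 to 35.1 TPM in untreated to 39.3 to 77.2 TPM in injected rats. Of the mural cell markers (2 of 6 listed), Rgs5 was 72.6 to 121.9 TPM in untreated and 1.68 to 9.25 TPM in injected rats. Myh11 overlapped between the lean groups (7.19 to 10.2 TPM in lean and 6.15 to 8.43 TPM in lean control). Between the obese groups Myh11 did not overlap, at 7.2 to 13.5 TPM in untreated obese and 3.9 to 5.34 TPM in obese + TT rats. The endothelial marker Plvap (1 of 6 listed) was 40.0 to 60.3 TPM in untreated and 1.68 to 10.6 TPM in injected rats. Macrophage markers (2 of 9 listed) summed to 415 to 546 TPM in untreated and 95.2 to 284 TPM in injected rats. The astrocyte marker Gja1 (1 of 4 listed) was 4.79 to 9.12 TPM in untreated and 1.21 to 3.39 TPM in injected rats. Red blood cell genes and the ependymal marker Dynlrb2 overlapped between the cohorts. The part of cell composition in the results below was not tested. In bulk tissue, fewer cells of a type and less RNA per cell cannot be told apart. Rat 14 of the lean control group stood apart, at 78.7 on the first principal component of the injected rats (22.2% of the variance) against -21.7 to 4.80 in the other 7, and each injected comparison was also computed without it.

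**Figure D1:**
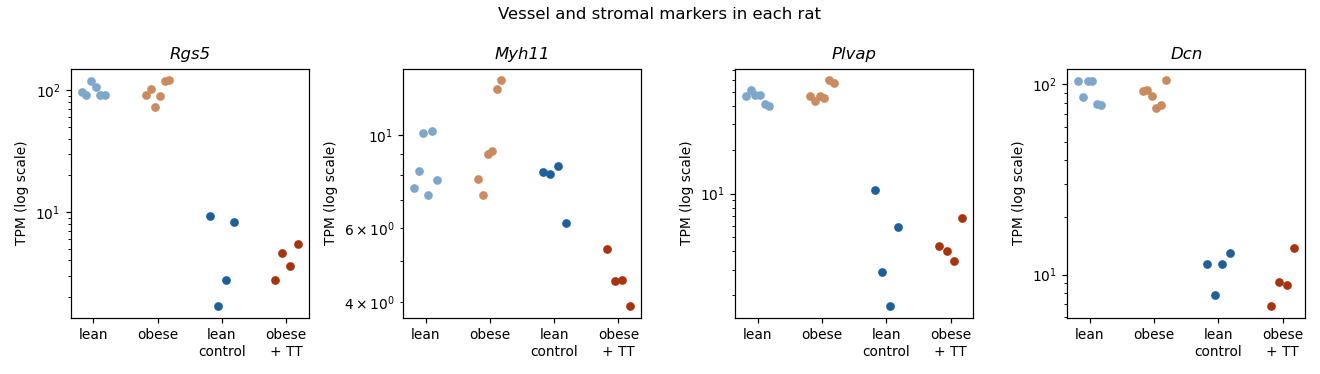
TPM (log scale) of the mural cell markers Rgs5 and Myh11, the endothelial marker Plvap and the fibroblast marker Dcn, each point 1 rat, in the 4 groups. Plvap is 40.0 to 60.3 TPM in the untreated and 1.68 to 10.6 TPM in the injected rats, and Myh11 is lower in every obese + TT rat than in every lean control rat.

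Upstream sequence was at hand for 5 of the 7 genes, as the 250 bases before the annotated RefSeq transcript start in the GRCr8 assembly. The genes lie apart in the genome, on chromosomes 1 (Pik3ap1), 11 (Ube2v2), 16 (Sfrp1), 8 (Scg3), 4 (Strip2 and Pon1) and 6 (Plekhd1). Only Pon1 stands next to a relative, since its neighbouring protein-coding gene is Pon3. Motifs were searched on both strands as the CCAAT box (CCAAT), the GC box (GGGCGG), the TATA box (TATAAA), the arm of the androgen response element (AGAACA) and the whole element, in which a pair of such arms face each other. The upstream stretches of 3 genes are printed because they show how unlike the genes are in this respect, from the GC-rich stretch of Pik3ap1 to that of Pon1, which is the only one of the 5 with an androgen response element arm. Capitals mark the motif matches, and each sequence runs 5′ to 3′ on the strand of its gene. Pik3ap1 lies at chr1:250154227-250154476 (minus strand), Strip2 at chr4:59503260-59503509 (plus strand) and Pon1 at chr4:34287861-34288110 (minus strand).
Pik3ap1: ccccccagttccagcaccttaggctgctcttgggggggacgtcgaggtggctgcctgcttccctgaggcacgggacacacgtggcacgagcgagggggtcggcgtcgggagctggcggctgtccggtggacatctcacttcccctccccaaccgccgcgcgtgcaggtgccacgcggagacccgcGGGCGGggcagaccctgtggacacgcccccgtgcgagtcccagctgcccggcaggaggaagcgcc
Strip2: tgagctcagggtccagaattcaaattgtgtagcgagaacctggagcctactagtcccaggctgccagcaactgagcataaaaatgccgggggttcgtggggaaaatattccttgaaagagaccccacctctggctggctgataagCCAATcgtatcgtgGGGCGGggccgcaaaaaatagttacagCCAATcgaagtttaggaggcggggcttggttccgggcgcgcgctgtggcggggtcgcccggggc
Pon1: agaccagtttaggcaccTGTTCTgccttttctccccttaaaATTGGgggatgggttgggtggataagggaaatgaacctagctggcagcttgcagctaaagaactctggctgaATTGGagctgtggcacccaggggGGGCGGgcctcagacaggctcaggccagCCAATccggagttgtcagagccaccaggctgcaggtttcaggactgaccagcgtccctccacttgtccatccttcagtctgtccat

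A CCAAT box was present in 4 of the 5 stretches (all but Pik3ap1), against 34% of the 33469 rat promoters of the same length. GC boxes were found in 3 of 5 (Pik3ap1, Strip2 and Pon1), against 30.5%. The single androgen response element arm lay 233 to 228 bases before the Pon1 start, and such an arm occurred in 17.5% of all promoters. The whole element was in none of the 5 and in 0.012% of promoters, and the TATA box in none of the 5 and in 12.9%. GC content was 56.4 to 72.8% (median of all promoters 51.2%) and CG dinucleotides numbered from 3 in Pon1 to 25 in Pik3ap1 (median of all promoters 5). A match of letters describes the sequence and is not evidence of binding.

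In the injected rats, all 7 genes were lower in every obese + TT rat than in every lean control rat, which is the property that selected them, and 1.66% of the 15259 genes tested had this arrangement. A difference below 0 was found in 47.4% of those genes. Plekhd1 and Pik3ap1 had the largest differences on the log2 scale. Differences are of mean log2(TPM + 0.1), with the standard error (SE) from the limma model across all genes, and carry no test here.

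Pik3ap1 measured 29.2, 26.0, 28.4 and 27.9 TPM in the lean control rats and 17.4, 16.5, 19.1 and 14.3 TPM in the obese + TT rats. The group means were 27.9 ± 1.38 and 16.8 ± 2.00 TPM (SD, n = 4 each), a level 39.6% lower in obese + TT (log2 difference -0.73, SE 0.09). The lowest lean control rat thus lay well above the highest obese + TT rat. In this contrast, which picked the genes, Pik3ap1 ranked 1 of all genes by p in the model. By size it ranked 13 among the 6916 genes whose mean reached 10 TPM.

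Ube2v2 was at 78.9, 73.5, 74.5 and 79.4 TPM in the lean control rats and at 52.0, 48.1, 58.8 and 44.8 TPM in the obese + TT rats, with means of 76.6 ± 3.01 and 50.9 ± 5.99 TPM (SD, n = 4 each). Its log2 difference was -0.59 (SE 0.08), or 33.5% lower. Its catalytic partner Ube2n, which was not selected, measured 93.5 ± 4.08 and 91.9 ± 7.59 TPM (SD, n = 4 each), and the groups overlapped (log2 difference -0.03, SE 0.07). RefSeq lists a pseudogene of Ube2v2, Ube2v2-ps1, so reads of the gene and of the copy could have been divided between them in counting, and the level of Ube2v2 is uncertain to that extent.

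Of the secreted proteins, Sfrp1 measured 99.6, 106.9, 107.0 and 101.4 TPM in the lean control group and 87.4, 80.3, 85.7 and 77.1 TPM with obesity and testosterone. Its difference was the smallest of the 7 in log2 terms, at -0.33 (SE 0.06), and 20.3% in TPM, between groups whose spread was small (103.7 ± 3.77 and 82.6 ± 4.78 TPM, SD, n = 4 each). Scg3 had the tightest lean control group of the set, at 35.6, 35.1, 37.4 and 36.0 TPM, and was at 27.9, 26.1, 24.0 and 29.9 TPM in the obese + TT group. Its log2 difference was -0.42 (SE 0.07), 25.1% lower. Cpe, the carboxypeptidase E that processes prohormones in the granules to which granins belong, was at 398.0 ± 36.1 and 399.3 ± 34.1 TPM (SD, n = 4 each) and overlapped between the groups.

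Strip2 was at 78.7, 82.6, 88.9 and 90.2 TPM in lean control rats and at 53.1, 59.9, 68.1 and 64.8 TPM in obese + TT rats, a log2 difference of -0.47 (SE 0.08), 27.8% lower. On the TPM scale both groups lay above the mean of the untreated rats of either genotype, but in FPKM the obese + TT and untreated obese means were 58.8 and 58.9. Of 17 listed STRIPAK genes, 7 had a name in the data, among them the phosphatase subunits Ppp2ca, Ppp2cb and Ppp2r1a. In obese + TT against lean control, 3 of these 7 had a difference below 0 and 4 above, with a median of 0.04 on the log2 scale, beside 0.01 over all genes tested, and in all 7 the groups overlapped.

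Pon1 measured 72.4, 93.1, 89.1 and 83.7 TPM in lean control rats and 62.3, 49.8, 55.0 and 62.98 TPM in obese + TT rats, with means of 84.6 ± 9.00 and 57.5 ± 6.30 TPM (SD, n = 4 each). Its log2 difference was -0.56 (SE 0.10). Neither relative showed a gap between the groups, but only Pon1 was selected on this contrast. Pon2 measured 120.6 ± 5.36 and 119.8 ± 4.21 TPM and Pon3, the neighbouring gene, 49.3 ± 6.70 and 43.2 ± 3.83 TPM (SD, n = 4 each), with log2 differences of -0.01 (SE 0.05) and -0.18 (SE 0.10).

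Plekhd1 was the scarcest of the 7 on the per-length TPM scale, at 1.68, 2.08, 2.00 and 2.05 TPM in lean control rats and 0.98, 0.92, 1.09 and 0.78 TPM in obese + TT rats. Its log2 difference of -0.98 (SE 0.18) corresponded to a TPM level 51.7% lower, and at this level it depends on the constant added before the logarithm, being -0.60 with a constant of 1. The lowest lean control value, 1.68 TPM, was still above the highest obese + TT value of 1.09 TPM.

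**Figure D2:**
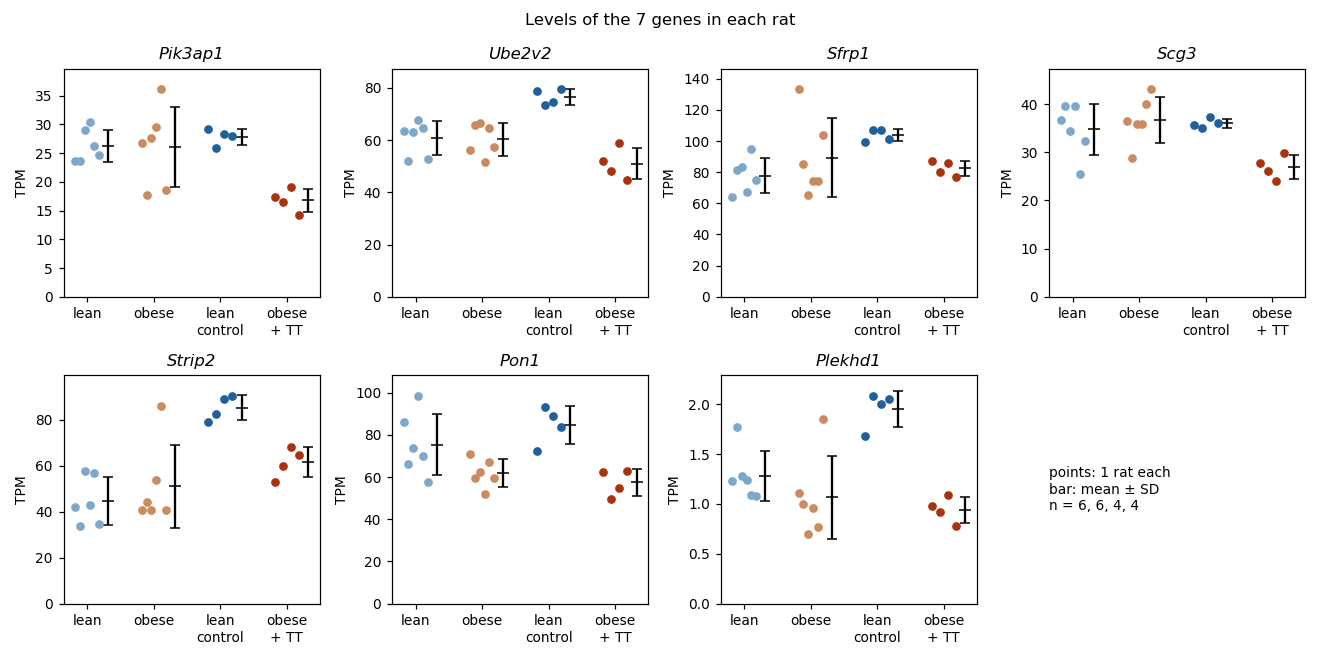
TPM of the 7 genes, each point 1 rat, with the mean ± SD of its group (lean n = 6, obese n = 6, lean control n = 4, obese + TT n = 4). In each gene the 4 obese + TT rats sit below the 4 lean control rats, whereas the untreated lean and obese rats overlap.

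Those 7 genes held ranks 1, 3, 7, 8, 9, 10 and 11 by p in the model of the injected rats. Between them stood Prlr, Nphs1, Cacna2d2 and Rrh, all lower as well (log2 differences -0.63, -1.72, -0.81 and -1.82). Just inside the edge of the set was Plekhd1 at rank 11 (-0.98, SE 0.18), and just outside it was Myh11 at rank 12 (-0.74, SE 0.14), a smooth muscle myosin used here as a mural cell marker. The selected genes were thus not the ones with the largest differences, since Sfrp1 ranked 1365 by size among all 15259 genes and Plekhd1, the highest, ranked 228.

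Leaving out each injected rat in turn, rat 14 included, could not bring a difference above 0, because the selected genes had groups without overlap. It shows only how far the size moved. For example, the difference ran from -0.80 to -0.66 for Pik3ap1, from -0.36 to -0.30 for Sfrp1 and from -1.05 to -0.90 for Plekhd1. Markers of other cells were compared in the same rats. The summed level of the mural cell markers was 9.76 to 17.4 TPM in the lean control group and 8.09 to 9.33 TPM in the obese + TT group, with no overlap, and Myh11 itself was 7.70 ± 1.04 and 4.56 ± 0.59 TPM (SD, n = 4 each). The other vessel and stromal markers overlapped (6 of 7 genes). Red blood cell genes (3 of 4 listed) summed to 2168 to 5767 TPM in the lean control group and 4799 to 8387 TPM in the obese + TT group, and macrophage genes (2 of 9 listed) to 126 to 284 and 95.2 to 213 TPM. The astrocyte marker Gja1 (1 of 4 listed) was higher in every obese + TT rat (2.94 to 3.39 TPM) than in every lean control rat (1.21 to 2.47 TPM). The 10 epithelial markers other than Ttr summed to 12135 to 13495 and 12466 to 13831 TPM, and of all 11 only Prlr, the prolactin receptor, had groups without overlap, at 244.8 to 289.1 TPM in lean control and 147.8 to 184.9 TPM in obese + TT rats. The part of these differences in the levels of the 7 genes was not tested.

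The untreated rats allowed the question whether obesity alone, without injections, went with lower levels of the same genes. None of the 7 passed the test in obese against lean rats (limma on log2(TPM + 0.1), n = 6 each, Benjamini-Hochberg adjustment over 15176 genes). In this comparison limma called no gene at all (0%) at an adjusted p under 0.05, while 1466 genes (9.66%) had an unadjusted p under 0.05. The study tested these groups with DESeq2 on read counts and did report differentially expressed genes. The absence of calls by limma on TPM is thus not evidence that no gene differed. In 4 of the 7 the difference was below 0 and in 3 above, beside 44.3% of all genes tested below 0, and none had groups without overlap, an arrangement seen in 0.244% of genes for lower and 0.297% for higher obese values.

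Pon1 came nearest to a difference. It ranged from 57.9 to 98.3 TPM with a median of 71.9 TPM in lean rats and from 52.0 to 70.8 TPM with a median of 60.9 TPM in obese rats, and all 6 obese rats lay below the lean median. The log2 difference was -0.27 (SE 0.11; 95% interval -0.51 to -0.02), with an adjusted p of 0.475 by limma and an exact two-sided permutation p of 0.0649. That adjusted p stayed between 0.323 and 0.727 over the other settings tried. The means were 75.4 ± 14.5 and 61.9 ± 6.56 TPM (SD, n = 6 each). In the other 6 genes the exact permutation p was between 0.186 and 0.922.

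Both relatives of Pon1 had lower means in untreated obese rats too, without passing the test across all genes. Pon2 was 141.0 ± 9.35 TPM in the lean and 123.6 ± 5.34 TPM in the obese group (SD, n = 6 each; log2 difference -0.19, SE 0.06), with an adjusted p of 0.295 by limma and an exact permutation p of 0.0108. For Pon3, 51.9 ± 5.21 and 43.0 ± 7.33 TPM were measured (SD, n = 6 each; log2 difference -0.28, SE 0.11), with an adjusted p of 0.431 by limma and an exact permutation p of 0.039. In each of the 3 paraoxonase genes all 6 obese rats lay below the lean median, yet the lowest lean rats reached into the range of the obese rats. The list of 11 paraoxonase and high density lipoprotein genes without Pon1 had 5 named genes, of which none was called, 3 were below 0 and 2 above.

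**Figure D3:**
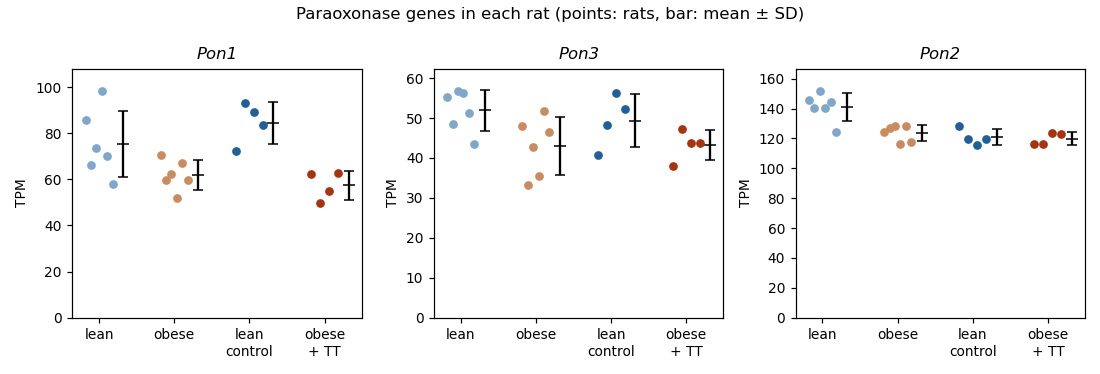
TPM of Pon1, Pon3 and Pon2, each point 1 rat, with the mean ± SD of its group. All 3 genes have a lower mean in untreated obese than in lean rats with overlapping points. Only Pon1 has separate points in lean control and obese + TT rats, the contrast in which it was selected and its relatives were not.

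Pik3ap1 and Ube2v2 were at nearly equal means in the untreated groups. Pik3ap1 ranged from 23.7 to 30.4 TPM (median 25.4) in the lean group and from 17.8 to 36.1 TPM (median 27.1) in the obese group, a log2 difference of -0.05 (SE 0.15; 95% interval -0.38 to 0.28; adjusted p = 0.957 by limma). The untreated obese rats were spread more widely, with rats 8 and 12 at 17.8 and 18.5 TPM, inside the range of the obese + TT rats. Ube2v2 ranged from 52.1 to 67.9 TPM (median 63.3) in the lean group and from 51.4 to 66.4 TPM (median 60.9) in the obese group, with a log2 difference of -0.01 (SE 0.09; 95% interval -0.19 to 0.17; adjusted p = 0.986 by limma).

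Sfrp1, Scg3 and Strip2 had means slightly higher in untreated obese rats. Sfrp1 ranged from 64.2 to 95.1 TPM (median 78.3) in the lean group and from 65.2 to 133.2 TPM (median 79.8) in the obese group (log2 difference 0.17, SE 0.15; 95% interval -0.16 to 0.50; adjusted p = 0.773 by limma). Scg3 ranged from 25.6 to 39.6 TPM (median 35.6) in the lean group and from 28.8 to 43.1 TPM (median 36.3) in the obese group (log2 difference 0.08, SE 0.11; 95% interval -0.16 to 0.33; adjusted p = 0.862 by limma). Strip2 ranged from 33.7 to 57.8 TPM (median 42.5) in the lean group and from 40.5 to 86.0 TPM (median 42.4) in the obese group (log2 difference 0.16, SE 0.19; 95% interval -0.24 to 0.57; adjusted p = 0.828 by limma). The groups overlapped in all 3. Single rats carried the first and the last of these differences, since Sfrp1 was at 0.044 without obese rat 7 and Strip2 at 0.0015 without obese rat 11, and Scg3 was at -0.00078 without lean rat 5.

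Plekhd1 ranged from 1.08 to 1.77 TPM (median 1.24) in the lean group and from 0.70 to 1.85 TPM (median 0.98) in the obese group. Its log2 difference of -0.29 (SE 0.21) had a 95% interval of -0.73 to 0.15 and an adjusted p of 0.701 by limma. Of the 6 obese rats 5 were below the lean median, and rat 12 at 1.85 TPM was the exception, without which the difference was -0.45. Plekhd1, Pon1, Pik3ap1 and Ube2v2 were below 0 in both cohorts, though Pik3ap1 and Ube2v2 were close to 0 in untreated rats. In injected rats that sign was set by the selection. The difference between the cohorts' effects was not tested, since the injected contrast chose the genes.

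**Figure D4:**
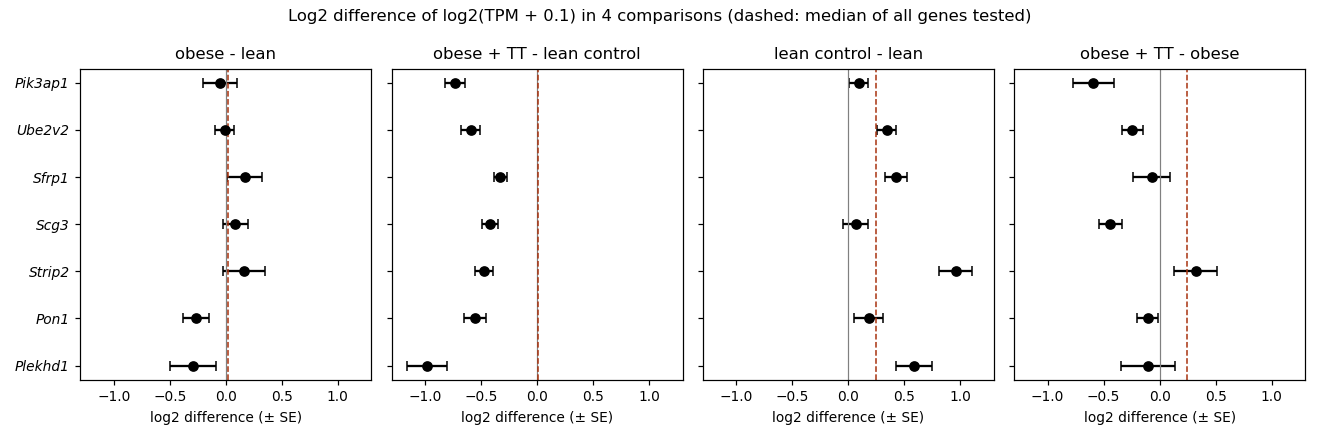
Log2 difference of mean log2(TPM + 0.1) ± SE for the 7 genes in 4 comparisons, with the median of all genes tested as a dashed line. All 7 points lie below 0 in obese + TT against lean control (-0.33 to -0.98), and they scatter around 0 in untreated obese against lean (-0.29 to 0.17).

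The injected rats can be set beside the untreated rats of the same genotype only as a description, because the injections, the cohort and, in the obese rats, testosterone cannot be told apart, and because each such comparison shares 4 libraries with the contrast that chose the genes. The cohorts also differ in general scale. The median gene was 0.24 higher on the log2 scale in lean control than in lean rats and 0.25 higher in obese + TT than in obese rats. When libraries were rescaled by the median ratio of their genes, these medians became -0.03 and -0.02, so values are given below as measured and relative to the median gene.

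Lean control rats stood above untreated lean rats without overlap in 3 of the 7 genes (Ube2v2, Sfrp1 and Strip2), beside 34% of all genes tested. None of the 7 was below 0, beside 35.1% of all genes, a count that selection on high lean control values favoured. With single rats left out, Scg3 fell as low as -0.019. Strip2 had the widest gap, 85.1 ± 5.38 against 44.6 ± 10.5 TPM (SD, n = 4 and n = 6), a log2 difference of 0.96 and of 0.72 relative to the median gene. Sfrp1 was 0.43 higher and Ube2v2 0.34 higher, or 0.18 and 0.10 relative to the median gene, and after rescaling only Strip2 kept groups without overlap, beside 22.9% of all genes. Plekhd1 was 0.58 higher (0.34 relative) with overlap. Pik3ap1, Scg3 and Pon1 were close to the lean level, at 0.09, 0.07 and 0.18, which is -0.15, -0.18 and -0.06 relative to the median gene.

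Obese + TT rats overlapped with untreated obese rats in all 7 genes on the TPM scale, where 11.7% of all genes were lower without overlap. Pik3ap1 and Scg3 were lowest relative to the untreated obese rats, with log2 differences of -0.59 and -0.44, or -0.84 and -0.68 relative to the median gene. In both, all 4 obese + TT rats were below the untreated obese median. Ube2v2 was at -0.24 (-0.49 relative), also with all 4 below that median. Pon1, Plekhd1 and Sfrp1 differed by -0.11, -0.10 and -0.07 (-0.35, -0.35 and -0.32 relative), and Strip2 was the one gene above 0, at 0.32 (0.08 relative). The other 6 of 7 were below 0, beside 34.7% of all genes, a count that selection on low obese + TT values favoured. With single rats left out, Sfrp1 reached 0.053 and Plekhd1 0.057, above 0. With libraries rescaled by the median ratio, 4 of the 7 genes (Pik3ap1, Ube2v2, Scg3 and Pon1) were lower in every obese + TT than in every obese rat, beside 23.3% of all genes.

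The order of the 4 groups differed between the genes on the TPM scale. The selection itself placed lean control above obese + TT in all 7, which favours lean control as highest and obese + TT as lowest. Lean control had the highest mean in 6 of the 7, the exception being Scg3, in which untreated obese rats were highest at 36.7 ± 4.77 TPM (SD, n = 6). Obese + TT had the lowest mean in Pik3ap1, Ube2v2, Scg3, Pon1 and Plekhd1, whereas untreated lean rats were lowest in Sfrp1 and Strip2. This order depends on the scale, since in FPKM lean control was highest in 3 of the 7 (Ube2v2, Strip2 and Plekhd1), untreated lean in Pik3ap1 and Pon1 and untreated obese in Sfrp1 and Scg3, while obese + TT was lowest in 6, all but Strip2. Among neighbours in the TPM orders, only lean control and lean for Ube2v2 and lean control and obese + TT for Strip2 had ranges that did not overlap. On the TPM scale both lean means lay above both obese means in Pik3ap1, Ube2v2, Pon1 and Plekhd1. For Pon1 the lean means were 84.6 TPM in lean control and 75.4 TPM in untreated rats. Its obese means were 61.9 TPM untreated and 57.5 TPM in obese + TT. In Pik3ap1 and Ube2v2 the 2 untreated means were nearly equal.

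Around the other members of their pathways, few genes carried a name in the data. In untreated obese against lean rats none of the named genes was called. Of 21 phosphoinositide 3-kinase and adaptor genes, Akt1 and Akt2 were named, and in injected rats both overlapped, with log2 differences of 0.07 and 0.03. Of 43 Wnt genes, Dkk3, Fzd9, Ctnnb1 and Wls were named, with 2 below and 2 above 0 in untreated and also in injected rats. The largest of these was the receptor Fzd9, at means of 2.00 ± 0.71 and 1.24 ± 0.61 TPM in the injected lean and obese groups (SD, n = 4 each), with overlap. No gene of the sex steroid receptor list (11 listed) had a name, so the androgen receptor was not analysed here.

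Within groups the 7 genes did not vary as 1 unit. After each group's mean was taken out, the 21 pairs had a median Pearson r of -0.03 over the 12 untreated rats (10 pairs above 0, range -0.59 to 0.65) and of 0.13 over the 8 injected rats (12 above 0, range -0.77 to 0.93). The highest of these, 0.93, was between Pik3ap1 and Ube2v2 in injected rats. These values are descriptions across rats on a shared scale, and the study names 1 library preparation kit without giving batches.

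The genes whose level followed each of the 7 most closely from rat to rat were sought over the 20 libraries, with group means removed. The search covered 11211 genes of at least 1 TPM in each group, so each r is the highest of many. For each of the 7, the 3 genes highest in r are given, of which at most 1 has no symbol at hand, further genes without a symbol being passed over. For Ube2v2 these were the galactokinase gene Galk1 (r = 0.88, Spearman rho 0.85), ENSRNOG00000012638 (0.87) and the calmodulin gene Calm2 (0.84, rho 0.79). Sfrp1 was followed by ENSRNOG00000017882 (r = 0.89), by the tendon transcription factor gene Scx (r = 0.88, rho 0.72) and by Gabarapl1 (0.87, rho 0.81), which acts in autophagy. Pik3ap1 was followed by the apolipoprotein E receptor gene Lrp8 (r = 0.82, rho 0.75), ENSRNOG00000017397 (0.79) and Nudt4 (0.70, rho 0.69). Strip2 went with Ash2l, of histone methyltransferase complexes, and Upf2, of nonsense-mediated decay (r = 0.86 and 0.86), and with ENSRNOG00000058866 (0.85). Scg3 went with Cttnbp2nl (0.76), ENSRNOG00000011422 (0.74) and Atp5pb (0.72), and Pon1 with Rpl7l1 (0.76), Dnajc15 (0.75) and ENSRNOG00000004941 (0.75). Plekhd1 went with ENSRNOG00000001979 (0.87), Bcl2l1 (0.84) and Col8a1 (0.78). Without the 2 rats farthest from the median of the gene, r was 0.61 to 0.84 over all 21 likenesses. Among them were 0.64 for Pik3ap1 with Lrp8, 0.73 for Sfrp1 with Scx and 0.84 for Ube2v2 with Galk1. The pairs were picked by r in the same libraries, so these values are no separate check.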

How the data were processed

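RNA of 20 choroid plexus samples was sequenced. Paired-end reads were aligned by the authors, using STAR 2.7.9a, to the rat genome Rnor_6.0, and the labels also list RSEM 1.3.3 and DESeq2. The authors deposited TPM and FPKM per Ensembl gene and library. In the deposited files FPKM equals TPM times 1 factor per library (within 0.0969% for values of at least 10 TPM), and that factor was 1.11 to 1.22 in untreated and 0.92 to 1.00 in injected rats. The study's methods give a nominal sequencing output, but the reads behind each value are not known from TPM and FPKM, so no counting interval is given. The authors' own comparison tables were read for gene symbols only (2616 genes), and their fold changes and p-values were not used.

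TPM was analysed as log2(TPM + 0.1) with limma 3.58.1 (R 4.3.3, trend in the empirical Bayes step) for genes averaging 0.1 TPM or more in the libraries compared, each comparison on its own groups. Genes were called at a Benjamini-Hochberg adjusted p under 0.05 over all genes tested. For 11 genes (the 7 and 4 relatives) an exact permutation test over the 12 untreated rats was run (two-sided; the smallest p it can give is 0.00216). Rats are labelled as separate samples. Groups came from the sample labels. Replicates were compared in 42 pairs of the same group, and at most 0.819% of the genes averaging 1 TPM or more had identical values in a pair. The model was tested on simulated data. Named were the 7 genes, their closest relatives and, for each, the 3 genes with the highest r over the 20 libraries, at most 1 of them without a symbol. The genes and lists were chosen with earlier results of these data known. Alternatives were other constants, filters, scalings and FPKM, a model of all 20 libraries and the omission of each rat, and FPKM and some omissions were chosen after seeing the data. Lymphocyte, neuron and oligodendrocyte marker lists had no named gene. Dynlrb2 (ependyma, 1 of 4 listed) was 133.5 to 196.3 TPM. Promoter sequences and gene neighbours came from RefSeq (GRCr8), used for names and sequence only. Python 3.11.15, pandas 2.3.3, numpy 2.4.6, scipy 1.17.1 and matplotlib 3.10.9 were used.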

Additional observations from a re-analysis of the deposited data

Results flagged for a closer look

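In the 7 genes, 3 values lay far from the rest of their group by Dixon's criterion, among 28 groups of 4 or 6 rats examined, of which chance alone marks about 1 in 20. Strip2 in untreated obese rat 11 was 85.95 TPM, against 40.5 to 53.9 TPM in the other 5 obese rats, a level otherwise seen in the lean control rats. Plekhd1 in untreated lean rat 2 was 1.77 TPM, against 1.08 to 1.28 TPM in the others, and Plekhd1 in untreated obese rat 12 was 1.85 TPM, against 0.70 to 1.11 TPM in the others. Without the rat concerned, the log2 difference of untreated obese against lean rats went from 0.16 to 0.0015 for Strip2 (without rat 11), and from -0.29 to -0.20 (without rat 2) or -0.45 (without rat 12) for Plekhd1, and no adjusted p of either gene by limma fell under 0.05.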

How the results depend on the processing

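Of 427 recomputed log2 differences of the 7 genes, 392 stayed within the spread between rats or on their side of the threshold. Their sign could still change. Without Ttr in the scaling, lean control against lean went from 0.091 to -0.017 for Pik3ap1 and from 0.066 to -0.042 for Scg3. None of the 7 genes passed the test in untreated rats under any setting. The number of genes called there was 1 with FPKM, 1 with scaling by the median ratio, 3 with all 20 libraries in the model, and 0 to 1 when a rat was left out (1 without lean rat 2, lean rat 6 or obese rat 7). In untreated rats, differences near 0 changed sign. Ube2v2 was 0.0049 without Ttr in the scaling and -0.053 to 0.034 over the omissions, Scg3 -0.00078 to 0.15 and Pik3ap1 -0.15 to 0.052. In injected rats Plekhd1 was -0.60 with a constant of 1.

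Scaling moved the comparisons between cohorts, by construction of the scale. Lean control against lean, in the order Pik3ap1, Ube2v2, Sfrp1, Scg3, Strip2, Pon1 and Plekhd1, was -0.17, 0.082, 0.17, -0.19, 0.70, -0.079 and 0.35 with FPKM and -0.20, 0.053, 0.14, -0.22, 0.67, -0.11 and 0.31 with the median ratio, and Plekhd1 was 0.38 with a constant of 1. Genes higher without overlap numbered 1 under either scaling. Obese + TT against obese, Ube2v2, Sfrp1, Scg3 and Pon1 were -0.52, -0.35, -0.72 and -0.38 under either scaling. Over the omissions Sfrp1 ran from -0.15 to 0.053 and Plekhd1 from -0.20 to 0.057. Genes lower without overlap numbered 3 without Ttr in the scaling, 4 with the median ratio and 4 with FPKM, and 0 to 1 over the omissions (1 without obese rat 8, obese + TT rat 19 or obese + TT rat 20).

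The limits are the 4 rats in each injected group, the few named genes and the unknown read counts. No paired analysis was possible because each rat number occurs once.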
